A study of Mus musculus with 19 samples.

Results

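The 33 antioxidant and glutathione genes described here encode the regulators NRF2 and KEAP1, the enzymes that make, recycle and use glutathione, the thioredoxin system, and enzymes that remove superoxide and peroxides. They form a list of gene symbols, and all 33 were found among the 26621 genes of the RNA-seq count table. All 33 also passed the filter on low counts that left 13105 genes for testing. The source was neural progenitor cells (NPCs), dividing cells that give rise to neurons and glia, taken from the mouse cerebral cortex at embryonic day 17.5. Cells carried either a conditional knockout (cKO) of Mettl8 or the wild type (WT) gene. Mettl8 encodes an RNA methyltransferase of mitochondria that makes 3-methylcytidine (m3C) in transfer RNA. Both genotypes were grown on plates coated with 1% Matrigel in medium with 20 ng/mL bFGF and 20 ng/mL EGF. RNA-seq by SMART-seq2, from 300.0 ng of total RNA, was done on 6 cKO and 6 WT libraries. HAC-seq, which reads m3C as a chemical cut in the RNA chain, was done on 3 cKO and 4 WT libraries from 8000 ng. The labels name neither the floxed allele nor the Cre driver, and do not say whether libraries came from separate embryos or cultures. The p-values therefore measure the spread between these libraries, which may be technical.

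Cells meet reactive oxygen species with layers of enzymes. Superoxide dismutases turn superoxide into hydrogen peroxide, and catalase, peroxiredoxins and glutathione peroxidases reduce the peroxide. Thioredoxin and glutathione supply the electrons for the peroxiredoxins and glutathione peroxidases. NADPH from the pentose phosphate pathway and malic enzyme recharges thioredoxin and glutathione. NRF2, the product of Nfe2l2, is held by KEAP1 and degraded in unstressed cells. When KEAP1 is modified by electrophiles, NRF2 enters the nucleus and, with small MAF proteins, binds antioxidant response elements near genes such as Nqo1, Gclc and Txnrd1. In the brain this program is known to be strong in astrocytes and weak in neurons.

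The library names divide the RNA-seq libraries into a pair of sets that each hold both genotypes. Set 2 has 4 cKO libraries (3 to 6) and 3 WT libraries (4 to 6), while set 1 has 2 cKO libraries (1 and 2) and 3 WT libraries (1 to 3). The labels do not say what the sets are. Along the first principal component (48.5% of the variance) the sets lay apart. Total counts ran from 11830839 to 18863781, and the 33 genes took 0.598% to 0.745% of the counts of a library. Mettl8 itself stood at 59.3 to 80.9 CPM in the cKO libraries and 35.9 to 58.6 CPM in the WT libraries, where CPM is the TMM-scaled count relative to library size. All cKO libraries thus lay above all WT libraries, while 0.13% of all genes tested had genotypes apart in either direction. A count over a whole gene does not isolate the deleted part, so these levels do not check the labels. The cause of the higher count in cKO was not tested. By Xist and Y-linked reads, 2 cKO libraries, replicates 1 and 5, came from male cells and the other 10 libraries from cells with Xist. Defining NPC markers were high throughout, with a summed 13272 to 18786 CPM over 12 genes. The summed markers of microglia, of endothelium and mural cells, of meningeal fibroblasts and of erythroid cells stayed under 8 CPM each in every library. Astrocyte markers were present in every library. Their summed level, over 7 genes of which none was at 0, was 1195 to 2356 CPM in set 2 and 3239 to 4293 CPM in set 1.

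Promoter sequence was examined first, because NRF2 acts through a short DNA motif. RefSeq promoter windows of GRCm38.p6, from 250 bases before to 50 bases after an annotated start, were matched by symbol for 28 of the 33 genes. The windows were searched on both strands for TGACNNNGC, the core of the antioxidant response element, which was found in 11 of the 28 (39.3%) and in 3781 of 27025 genes with a window (14.0%). Many of the 33 genes are textbook NRF2 targets, so this share describes the list and tests nothing. Windows for Prdx6, Gsr, Gclc, Gsta4 and Hmox1 were not analysed here. The stretches below are shown because Nfe2l2 and Txnrd1 are the 2 genes with a match that differed between the library sets, Mgst1 had the lowest genotype fold change, and Gclm and Prdx1 are known targets that did not pass either test. Each runs 5′ to 3′ on the strand of the gene, and capitals mark the motif, which reads as GCNNNGTCA where it lies on the opposite strand.
Nfe2l2 (chr2:75704855-75704913, minus strand): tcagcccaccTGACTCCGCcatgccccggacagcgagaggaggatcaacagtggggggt
Txnrd1 (chr10:82859074-82859162, plus strand): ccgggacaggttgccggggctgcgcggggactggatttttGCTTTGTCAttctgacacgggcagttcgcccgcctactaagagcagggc
Mgst1 (chr6:138140431-138140519, plus strand): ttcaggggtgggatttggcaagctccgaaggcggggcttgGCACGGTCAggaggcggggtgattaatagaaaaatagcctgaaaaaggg
Gclm (chr3:122245383-122245471, plus strand): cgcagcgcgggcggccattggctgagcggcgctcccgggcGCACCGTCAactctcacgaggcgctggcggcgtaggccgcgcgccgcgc
Prdx1 (chr4:116685426-116685514, plus strand): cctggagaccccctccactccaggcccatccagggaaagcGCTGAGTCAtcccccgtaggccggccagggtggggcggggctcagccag
The match in Nfe2l2 began 240 bases before the annotated start, that in Txnrd1 92 bases before, in Mgst1 56, in Gclm 134 and in Prdx1 133. The Txnrd1 window (82858956 to 82859255) lies inside the annotated span of the gene (chromosome 10, 82833951 to 82897724), at an internal start. Of the 14 genes that differed between library sets, described below, 9 were among the 28 with a window, and 2 of these had a match. The rest of the 28 held the other 9 of the 11 genes with a match, and this split was not tested. Sequence outside the windows was not searched, so a gene without a match may still have an element.

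The comparison of genotypes asked whether antioxidant genes differ between Mettl8 cKO and WT NPCs. No member passed the threshold. In edgeR's quasi-likelihood fit with both genotype and set as terms, adjusted over 13105 genes by Benjamini-Hochberg with a threshold of 0.05, the genotype test called 0 of 33 members (background 0%, 0 genes), and DESeq2 also called 0 members (2 genes in all). At an unadjusted p under 0.05 edgeR gave 5 of 33 (15.2%, against 6.14% of all genes), of which Gsr lay higher in cKO (1 of 33, against 2.86% of all genes) and Mgst1, Gstm1, Prdx6 and Txn2 lay lower (4 of 33, against 3.28%). Fold changes were small. Their median was -0.061 on the log2 scale over the members and -0.000996 over all genes tested, and they ran from -0.35 for Mgst1 to 0.29 for Gsr. In all, 24 of 33 members (72.7%) lay below 0, against 50.4% of all genes, a share that was not tested. The median level of the members itself varied between libraries of the same genotype and set, with an SD of 0.072 on the log2 scale. Of the 24, Nfe2l2, Nqo1 and Gclc turned sign with embryo sex as a covariate. Sod2 and Prdx1 turned sign with a replicate block. All 6 peroxiredoxins, all 5 glutathione transferases and all 3 of the dismutases and catalase were among the 24, and both glutathione peroxidases were not. Prdx1, Prdx3, Sod2 and both glutathione peroxidases had fold changes smaller than their standard errors, and no role was tested as a group. No member had cKO libraries that all lay above or all lay below the WT libraries, as 0.13% of all genes did.

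**Figure D1:**
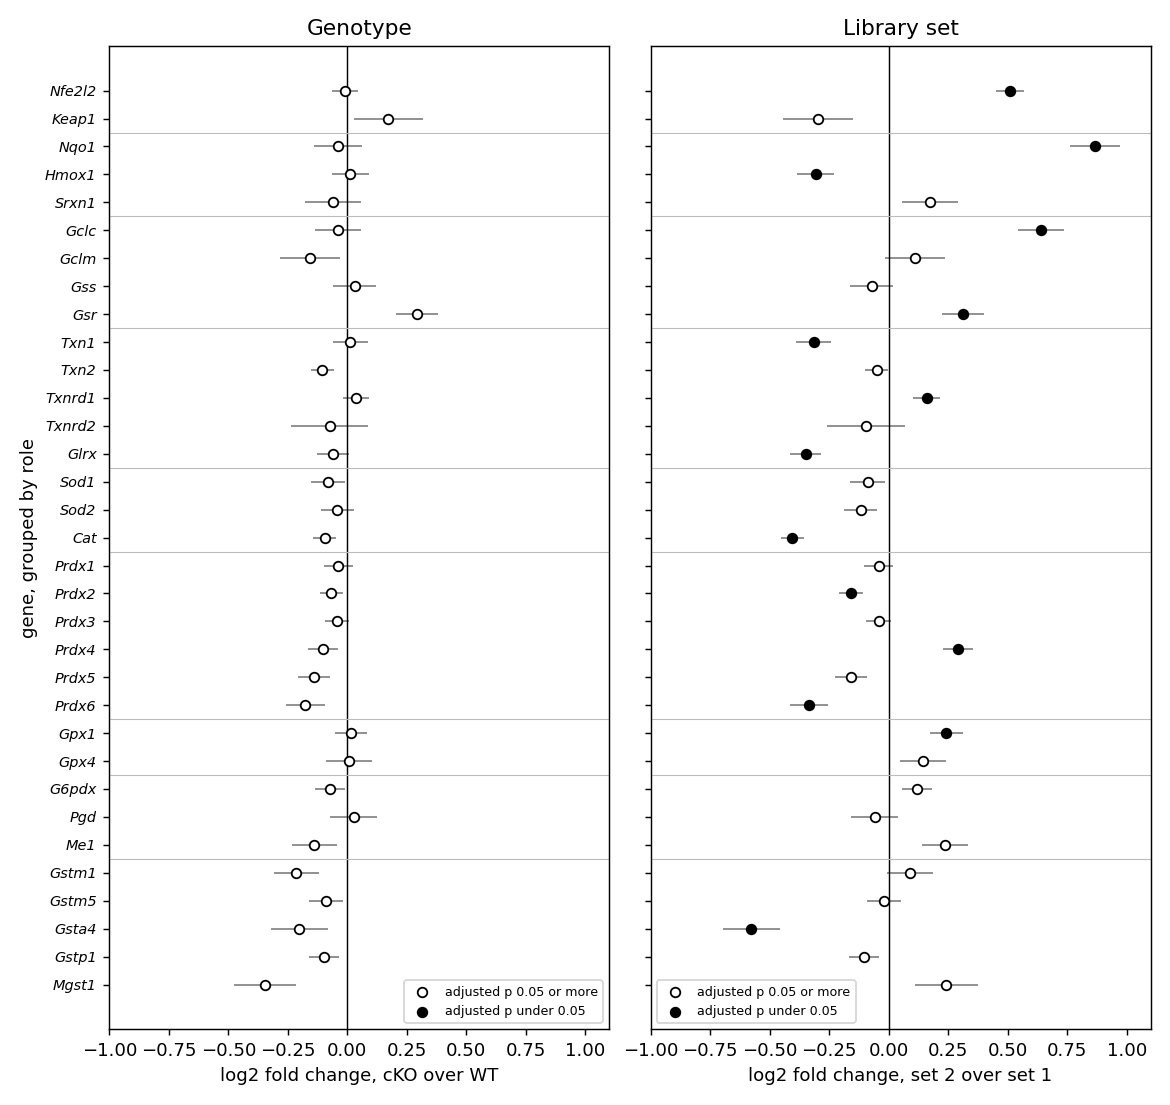
Log2 fold changes of the 33 genes, cKO over WT on the left and library set 2 over set 1 on the right, from 1 edgeR fit of 12 libraries. Lines are 1 standard error, filled points passed an adjusted p of 0.05, and horizontal rules separate roles: 0 points are filled for genotype and 14 for library set.

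Gsr encodes glutathione reductase, which uses NADPH to turn oxidised glutathione back into its reduced form (chromosome 8, 33653238 to 33698162, GRCm38.p6). Its level was 22.3, 23.6, 20.9 and 22.5 CPM in the 4 cKO libraries of set 2, against 17.7, 19.2 and 18.4 CPM in the 3 WT libraries of that set. In set 1 it was 16.7 and 19.7 CPM in cKO, against 13.7, 14.9 and 15.2 CPM in WT. Every cKO library thus lay above every WT library of its own set, in both sets, which held for 0.328% of all genes tested and for no other member. Across sets the ranges overlapped, since the lower cKO library of set 1 lay below the WT libraries of set 2. The fold change was 0.29 (SE 0.0865, cKO over WT) with an edgeR p of 0.00310 and an adjusted p of 0.803, so the difference did not pass the test over all genes. Within sets it was 0.28 (SE 0.116) in set 2 and 0.32 (SE 0.140) in set 1. Without the 2 male cKO libraries it was 0.35.

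Mgst1 encodes a glutathione transferase of the endoplasmic reticulum and outer mitochondrial membranes that also reduces lipid peroxides (chromosome 6, 138140527 to 138156755, GRCm38.p6). It stood at 73.9, 50.5, 65.3 and 95.6 CPM in the cKO libraries of set 2, against 80.8, 120.3 and 112 CPM in WT. In set 1 the levels were 68.9 and 75.8 CPM in cKO and 68.6, 81.3 and 75.7 CPM in WT. The groups overlapped in both sets. The mean was 71.3 CPM in cKO and 104 CPM in WT in set 2, and 72.3 CPM in cKO and 75.2 CPM in WT in set 1. The fold change was -0.35 (SE 0.131, edgeR p 0.0160, adjusted p 0.803), with -0.55 in set 2 (p 0.00282, adjusted p 0.571) and -0.056 in set 1 (adjusted p 1.00). The interaction, which tests whether these differ, had an edgeR p of 0.0638 and an adjusted p of 1.000. With no filter on low counts, Mgst1 alone among the members was called lower in cKO (adjusted p 0.00254 over 20312 genes, 65 of them called). Over all alternatives its adjusted p ran from 0.00254 to 1.00.

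Gstm1 encodes a cytosolic glutathione transferase of the mu class, which attaches glutathione to electrophiles. The cKO libraries of set 2 held 379.6, 277, 372 and 478 CPM and the WT libraries of set 2 406, 477 and 483 CPM. Set 1 had 378 and 368 CPM in cKO and 358, 448 and 416 CPM in WT. The groups overlapped in both sets, and the fold change was -0.21 (SE 0.0952, edgeR p 0.0365, adjusted p 0.806). Prdx6 encodes a peroxiredoxin that reduces phospholipid hydroperoxides with glutathione. Its levels were 891, 835, 951 and 1236 CPM in cKO and 1088, 1240.0 and 1217 CPM in WT in set 2, and 1319 and 1367 CPM in cKO and 1226, 1457 and 1457 CPM in WT in set 1. These groups overlapped too, with a fold change of -0.18 (SE 0.0808, edgeR p 0.0421, adjusted p 0.806). The cKO replicate 4 library was the lowest of all 12 for Mgst1, Gstm1 and Prdx6. It also had the lowest summed astrocyte markers, 1195 CPM, against 1646 to 2183 CPM in the other cKO libraries of set 2 and 1767 to 2356 CPM in the WT libraries of set 2. The same library had the lowest summed NPC markers of the 12 (13272 CPM), the lowest summed markers of the oligodendrocyte lineage (178 CPM), and stood apart on the second principal component, at 35.5 against -24.5 to 9.92 in the other 11. Without that library the fold changes, cKO over WT, were -0.26 for Mgst1, -0.14 for Gstm1 and -0.13 for Prdx6. All 7 astrocyte markers lay below 0 in cKO, against 50.4% of all genes, and 0 of them were called by edgeR. Below 0 too were 6 of 8 tested neuron markers, 4 of 5 of the oligodendrocyte lineage and 7 of 12 NPC markers. The 2 tested markers of endothelium and mural cells lay below 0, and those of microglia and meningeal fibroblasts, 1 each, above. These lists also had 0 calls. The part of any of these markers in the differences was not tested, and in bulk RNA fewer cells of a type cannot be told apart from less RNA per cell. Txn2, the thioredoxin of the mitochondrial matrix, held 363, 408, 391 and 406 CPM in the cKO libraries of set 2, all below the 418, 438 and 429.8 CPM of the WT libraries there. In set 1 the ranges overlapped, at 391 and 439 CPM in cKO and 432, 452 and 424 CPM in WT (fold change -0.11, SE 0.0490, edgeR adjusted p 0.806). Cat was the only other member with all cKO libraries of set 2 below the WT libraries of set 2, so that 2 of 33 members (6.06%) did so, against 3.96% of all genes. In set 1, 5 members had all cKO libraries below the WT libraries (Gss, Txn1, Prdx1, Prdx5 and Me1; 15.2%, against 8.36% of all genes), and 3 had them all above (Hmox1, Gsr and Gpx4; 9.09%, against 7.83%).

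**Figure D2:**
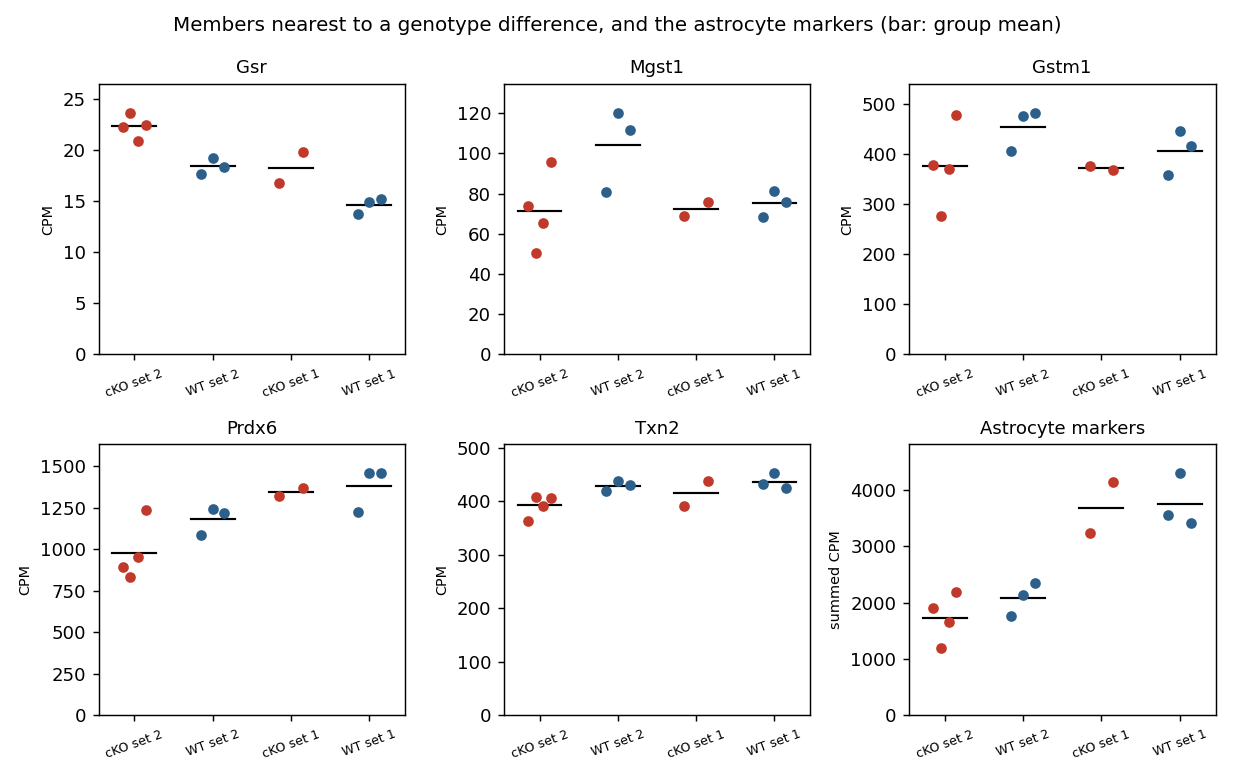
Levels in CPM (vertical axis, from 0) of the 5 genes with an unadjusted p under 0.05 for genotype, and summed CPM of 7 astrocyte markers, in the 12 RNA-seq libraries. Each point is a library, red for cKO and blue for WT, and bars are group means: the cKO points of Gsr lie above the WT points in each set, and the astrocyte sums are lower in set 2 than in set 1.

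None of the regulators and classic NRF2 targets passed the test between genotypes. Nfe2l2 had a fold change of -0.0097 (SE 0.0560, cKO over WT, log2 scale), and Keap1, the adaptor that delivers NRF2 for degradation, had 0.17 (SE 0.146). Nqo1, a quinone reductase, had -0.038 (SE 0.102), and Hmox1, which breaks down haem, had 0.013 (SE 0.0786). Srxn1 encodes sulfiredoxin, which restores over-oxidised peroxiredoxins. Its fold change was -0.059 over both sets, with -0.26 in set 2 and 0.23 in set 1. Srxn1 was the single member with an interaction p under 0.05 (edgeR p 0.0383, adjusted p 1.000), 1 of 33 against 3.54% of all genes. For interaction edgeR called 0 members (background 0%, 0 genes), and DESeq2 also called 0 members (2 genes in all). Of the enzymes of glutathione synthesis, Gclc, the catalytic subunit of glutamate-cysteine ligase, had -0.039 (SE 0.0947). Its modifier subunit Gclm had -0.16 (SE 0.125), and glutathione synthetase, Gss, had 0.030 (SE 0.0908). The signs of Nfe2l2, Nqo1, Hmox1 and Gclc turned when embryo sex was a covariate, to 0.033, 0.021, -0.019 and 0.043, so no direction is given for them.

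METTL8 works in mitochondria, so 4 members known chiefly for mitochondrial roles were examined as a group. They are Sod2, the manganese superoxide dismutase, Prdx3, a peroxiredoxin of the matrix, Txn2 and its reductase Txnrd2. All 4 lay below 0, from -0.11 for Txn2 to -0.041 for Sod2, and 0 of 4 were called. Of all genes tested, 50.4% lay below 0, and the lean of the 4 was not tested. Sod2 turned to 0.0038 with a replicate block, and Txnrd2 to 0.0053 when 1 library was left out. Sod2 held 71.4, 83.8, 79.7 and 95.6 CPM in cKO and 83.5, 81.1 and 84.7 CPM in WT in set 2, and 83.98 and 90.04 CPM in cKO and 95.3, 87.1 and 95.2 CPM in WT in set 1. These ranges overlapped, and the fold change of -0.041 (SE 0.0682, edgeR adjusted p 0.939) was smaller than its error. Gpx4, the peroxidase that protects membranes from lipid peroxides, held 22.5, 24.9, 26.4 and 32.9 CPM in cKO and 28.2, 30.9 and 26.95 CPM in WT in set 2. In set 1 it held 26.01 and 27.5 CPM in cKO and 23.5, 24.1 and 23.6 CPM in WT, and the fold change was 0.0091 (SE 0.0966, edgeR adjusted p 0.991). Gpx1, the cytosolic peroxidase, had 0.017 (SE 0.0672). The remaining peroxiredoxins lay between -0.14 for Prdx5 and -0.038 for Prdx1. Of the NADPH enzymes, Me1 had -0.14 (SE 0.0944), G6pdx -0.074 (SE 0.0624) and Pgd 0.026 (SE 0.0969). Gsta4, which conjugates the lipid peroxidation product 4-hydroxynonenal, had -0.20 (SE 0.119), and Gstm5 and Gstp1 had -0.088 and -0.10. Sod1 had -0.080, Cat -0.10 (SE 0.0485), Glrx -0.061, Txn1 0.012 and Txnrd1 0.037. The adjusted p of every member lay between 0.803 and 0.991.

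More members differed between library sets than between genotypes. The edgeR test of set 2 over set 1, with genotype as a covariate, called 14 of 33 members (42.4%), and it called 43.8% of all genes tested (5736). The share of members was thus near that of all genes. Of the 14, 7 were higher in set 2 (21.2%, against 21.5% of all genes) and 7 lower (21.2%, against 22.2%). The median fold change, set 2 over set 1, was -0.042 over the members and 0.00125 over all genes. In 7 members (21.2%) the sets did not overlap, against 23.6% of all genes: Nfe2l2, Nqo1, Gclc, Txnrd1 and Prdx4 lay above in set 2, and Cat and Glrx below. By role, the regulators and targets of NRF2 and the glutathione cycle gave 4 of the 7 higher calls and Hmox1 among the lower ones. The thioredoxin and glutaredoxin group gave 1 higher and 2 lower, and the peroxiredoxins 1 higher and 2 lower. The 4 mitochondrial members and the 3 NADPH enzymes gave 0 calls in this test, though the NADPH enzyme Me1 was called higher by DESeq2. Astrocyte markers moved with library set as well, with 6 of 7 lower in set 2, as did those of the oligodendrocyte lineage, with 4 of 5 lower (178 to 498 summed CPM in set 2 and 642 to 938 in set 1). Of 8 tested neuron markers, 5 were higher in set 2 and 1 was lower, while the summed level of all 9 listed was 1794 to 1989 CPM in set 2 and 2054 to 2628 CPM in set 1. All 12 NPC markers were called as well, 4 higher and 8 lower. The part of these markers in the differences below was not tested.

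**Figure D3:**
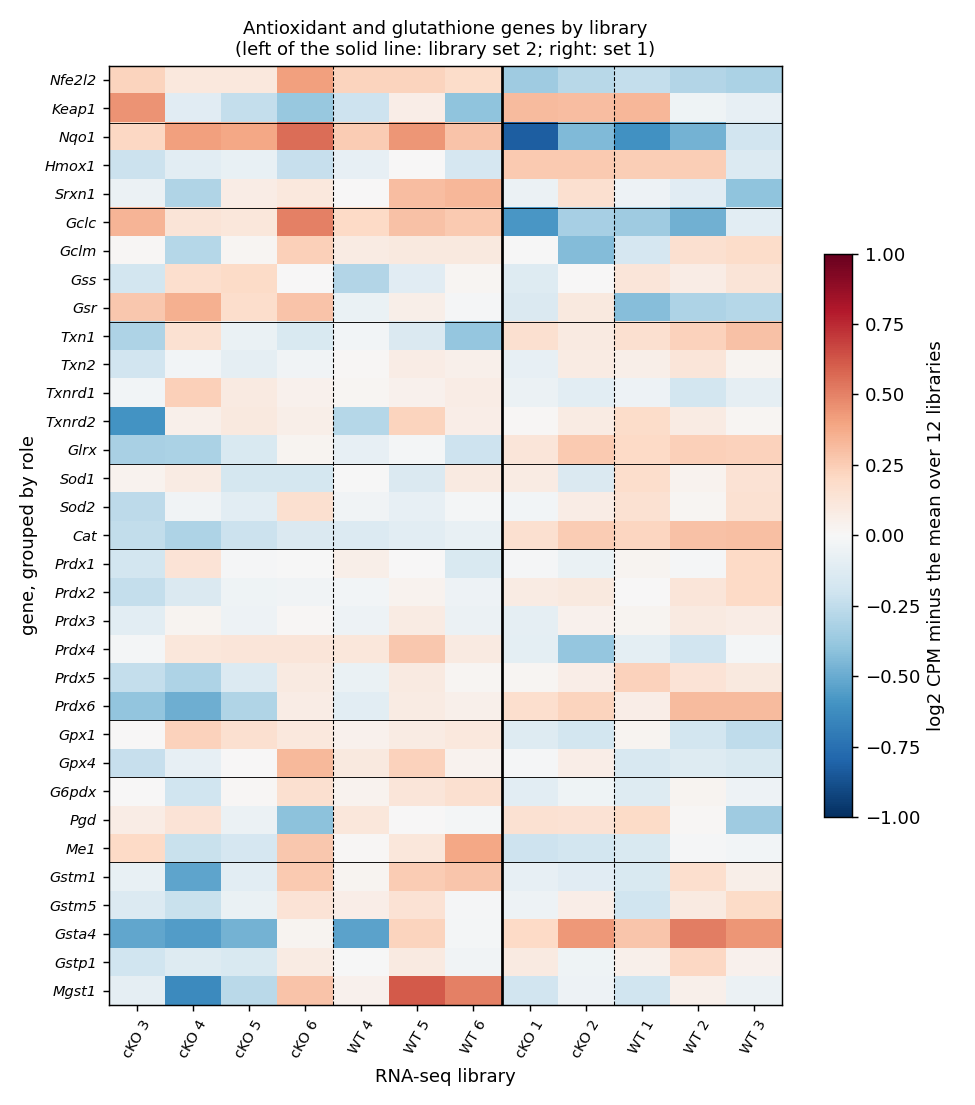
Each gene's log2 CPM minus its mean over the 12 libraries (colour, red above and blue below the mean), with genes as lines of the grid grouped by role and libraries as columns. Set 2 is left of the solid line and cKO left of the dashed line within each set: Nfe2l2, Nqo1 and Gclc are red across set 2, and Cat and Glrx are blue across all or nearly all of it.

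Nfe2l2, the gene of NRF2 (chromosome 2, 75675513 to 75704663, GRCm38.p6), had the smallest set p of the members. Set 2 held 348, 321, 321 and 397 CPM in cKO and 348, 348 and 338 CPM in WT, and set 1 held 233 and 246 CPM in cKO and 253, 244 and 239.9 CPM in WT. All 7 libraries of set 2 lay above all 5 of set 1, whatever the genotype, and Nfe2l2 was 1.42 times higher in set 2 (log2 0.51, SE 0.0574, edgeR adjusted p 8.18e-07). Keap1 held 13.7, 9.29, 8.52 and 7.75 CPM in cKO and 8.69, 10.5 and 7.61 CPM in WT in set 2, and 12.5 and 12.5 CPM in cKO and 12.7, 9.75 and 9.49 CPM in WT in set 1. Its sets overlapped, with cKO replicate 3 the highest of all, and the fold change of -0.30 (SE 0.147, edgeR adjusted p 0.110) did not pass. Without cKO replicate 3 it passed, at -0.38.

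Among the classic targets, Nqo1 (chromosome 8, 107388225 to 107403205) had the largest fold change of the 33 genes. It held 29.9, 34.3, 33.8 and 38.2 CPM in the cKO and 30.8, 35.1 and 31.5 CPM in the WT libraries of set 2. In set 1 it held 14.7 and 19.03 CPM in cKO and 17.1, 18.7 and 22.6 CPM in WT, so the sets did not overlap (log2 0.87, SE 0.105, edgeR adjusted p 2.04e-06; 1.82 times higher in set 2). Hmox1 went the other way. Its levels were 43.7, 47.1, 48.1 and 43.1 CPM in cKO and 47.7, 50.8 and 45.1 CPM in WT in set 2, against 60.6 and 60.8 CPM in cKO and 59.9, 60.01 and 45.95 CPM in WT in set 1. All but 1 library of set 1, WT replicate 3, lay above set 2, and Hmox1 fell by 0.31 on the log2 scale in set 2 (SE 0.0793, edgeR adjusted p 0.00395). In the WT libraries taken alone, Hmox1 did not pass. Srxn1 had a fold change of 0.17 (SE 0.119, edgeR adjusted p 0.253), which did not pass. The classic NRF2 targets thus gave calls in both directions between the sets.

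In glutathione synthesis the 2 subunits of the rate-limiting ligase gave different results. Gclc (chromosome 9, 77754535 to 77794489) held 36.9, 31.9, 31.6 and 41.5 CPM in cKO and 33.5, 35.7 and 34.9 CPM in WT in set 2, against 19.5 and 23.1 CPM in cKO and 22.8, 20.9 and 27.1 CPM in WT in set 1. The sets did not overlap, and Gclc was 1.56 times higher in set 2 (log2 0.64, SE 0.0975, edgeR adjusted p 2.91e-05). Gclm held 10.5, 8.54, 10.5 and 12.3 CPM in cKO and 10.98, 11.2 and 11.1 CPM in WT in set 2, and 10.4 and 7.68 CPM in cKO and 9.27, 11.6 and 11.8 CPM in WT in set 1. Its sets overlapped, and its fold change was 0.11 (SE 0.127, edgeR adjusted p 0.510). Whether the 2 subunits differed from each other was not tested. Gsr, whose values are given above, was 1.24 times higher in set 2 (log2 0.31, SE 0.0883, edgeR adjusted p 0.00725), while Gss had -0.072 (SE 0.0919, adjusted p 0.559).

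**Figure D4:**
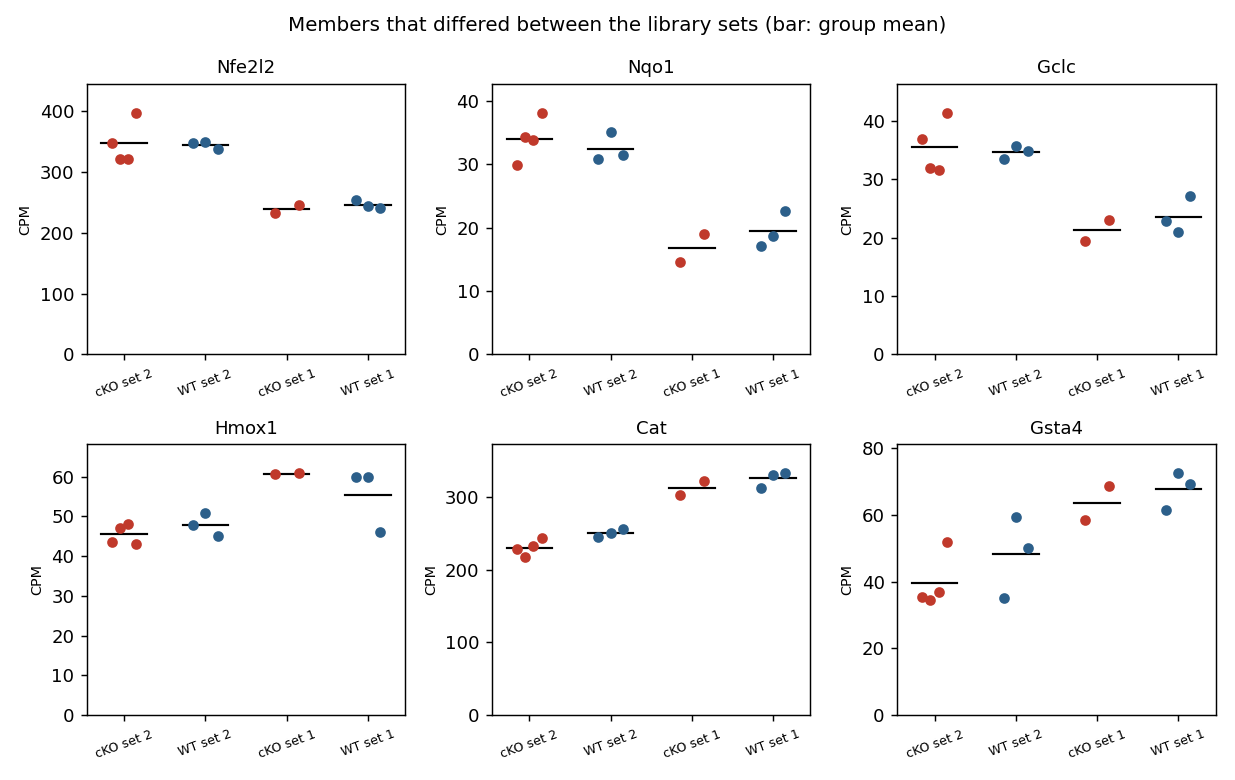
Levels in CPM (vertical axis, from 0) of 6 genes called between library sets, in the 12 RNA-seq libraries. Each point is a library, red for cKO and blue for WT, and bars are group means: Nfe2l2, Nqo1 and Gclc are higher in set 2 and Hmox1, Cat and Gsta4 lower, with cKO and WT points intermixed or close within most sets.

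In the thioredoxin and glutaredoxin group, the cytosolic genes moved in both directions. Txn1, cytosolic thioredoxin, held 617, 849, 733 and 689 CPM in cKO and 751, 694 and 586 CPM in WT in set 2, against 854 and 815 CPM in cKO and 854, 899 and 938 CPM in WT in set 1. Only cKO replicate 4 of set 2 reached into the range of set 1, and Txn1 fell by 0.31 on the log2 scale (SE 0.0743, edgeR adjusted p 0.00197). Glrx encodes glutaredoxin 1, which removes glutathione from protein thiols. It stood at 90.8, 91.3, 102 and 116 CPM in cKO and 107, 112 and 98.4 CPM in WT in set 2, against 124 and 136 CPM in cKO and 131, 134 and 134 CPM in WT in set 1, without overlap (log2 -0.35, SE 0.0670, edgeR adjusted p 3.11e-04). Txnrd1, the cytosolic thioredoxin reductase and a known NRF2 target, stood at 152 to 183 CPM in set 2 and 137 to 150.0 CPM in set 1, again without overlap. Its rise was small (0.16, SE 0.0565, edgeR adjusted p 0.0279) and no longer passed without cKO replicate 1, cKO replicate 2 or WT replicate 2, or with no filter on low counts (adjusted p 0.0613). The mitochondrial partners did not pass, with -0.051 for Txn2 and -0.094 for Txnrd2.

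Cat encodes catalase, the peroxisomal enzyme that splits hydrogen peroxide (chromosome 2, 103453904 to 103485153). It held 228, 217, 233 and 244 CPM in cKO and 245, 251 and 256 CPM in WT in set 2, against 302 and 322 CPM in cKO and 313, 331 and 332 CPM in WT in set 1. No library of set 2 reached set 1, and Cat stood at 0.755 of its set 1 level (log2 -0.41, SE 0.0488, edgeR adjusted p 1.92e-06). The superoxide dismutases did not pass, with -0.089 for Sod1 (adjusted p 0.348) and -0.12 for Sod2 (adjusted p 0.181).

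The 6 peroxiredoxins split by gene. Prdx4, the peroxiredoxin of the endoplasmic reticulum, held 128, 141, 142 and 142 CPM in cKO and 141, 157 and 139 CPM in WT in set 2, against 122 and 99.5 CPM in cKO and 122, 114 and 128 CPM in WT in set 1. The lowest library of set 2 stood just above the highest of set 1 (128.4 against 128.3 CPM), and Prdx4 was 1.22 times higher in set 2 (log2 0.29, SE 0.0639, edgeR adjusted p 0.00104). Prdx6, with the values given above, fell by 0.33 (SE 0.0815, edgeR adjusted p 0.00255), with sets that overlapped through WT replicate 1 of set 1. Prdx2, a cytosolic peroxiredoxin, stood at 578 to 699 CPM in set 2 and 681 to 782 CPM in set 1, with overlap, and fell by 0.16 (SE 0.0504, edgeR adjusted p 0.0151), a call that was lost without cKO replicate 2. Prdx1, Prdx3 and Prdx5 had -0.041, -0.042 and -0.16 and did not pass.

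Of the glutathione peroxidases, Gpx1 was higher in set 2, with 59.1 to 69.3 CPM in its libraries, against 49.6 to 60.4 CPM in set 1, and with overlap (log2 0.24, SE 0.0685, edgeR adjusted p 0.00755). Gpx4 had 0.14 (SE 0.0983, edgeR adjusted p 0.252) and did not pass. Of the transferases, Gsta4 alone passed. It held 35.5, 34.5, 36.7 and 51.98 CPM in cKO and 35.04, 59.3 and 50.2 CPM in WT in set 2, against 58.6 and 68.6 CPM in cKO and 61.5, 72.4 and 69.3 CPM in WT in set 1. WT replicate 5 of set 2 reached the lowest library of set 1, and Gsta4 stood at 0.6702 of its set 1 level (log2 -0.58, SE 0.119, edgeR adjusted p 6.17e-04). Mgst1 had 0.24 (edgeR adjusted p 0.151) and passed in the WT libraries alone (0.47, adjusted p 0.0127). Gstm1, Gstm5 and Gstp1 had 0.091, -0.019 and -0.10. The NADPH enzymes had 0.24 for Me1 (adjusted p 0.0530 in edgeR), 0.12 for G6pdx and -0.059 for Pgd. Me1 passed with DESeq2 (adjusted p 0.0384), and in edgeR with RLE scaling (0.0484), halved counts (0.0426) or no filter on low counts (0.0494). The glutathione transferases of the mu class, the GSTP genes and several peroxiredoxins have close paralogs or processed copies, so how their reads were shared out is uncertain.

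A further 58 genes of the same pathways, chosen with earlier results of these data known, were examined beside the 33. Of these, 57 were in the table and 50 were tested. For genotype edgeR and DESeq2 called 0 of 50, with 3 (6%) at an unadjusted p under 0.05, against 6.14% of all genes. For library set 19 of 50 were called by edgeR (38%, against 43.8% of all genes), 9 higher and 10 lower. Slc7a11 imports cystine, the substrate for glutathione synthesis. It held 23.9, 23.6, 28.9 and 21.6 CPM in cKO and 19.6, 28.8 and 26.2 CPM in WT in set 2, against 49.4 and 56.7 CPM in cKO and 48.1, 63.3 and 35.1 CPM in WT in set 1 (log2 -1.04, SE 0.126, edgeR adjusted p 2.09e-06). Nnt, the mitochondrial transhydrogenase that makes NADPH, held 29.2, 27.2, 46.8 and 45.00 CPM in cKO and 43.2, 46.5 and 49.9 CPM in WT in set 2, against 83.6 and 96.1 CPM in cKO and 152, 101.1 and 73.98 CPM in WT in set 1. Both genes were lower in set 2 without overlap, and Nnt had the lowest fold change of the list (-1.25, SE 0.149, edgeR adjusted p 1.74e-06). Fth1, the ferritin heavy chain that stores iron, fell by 0.41 (SE 0.0656, edgeR adjusted p 4.39e-05).

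Abcc1 exports glutathione conjugates and ran the opposite way. It held 29.9, 29.03, 33.2 and 30.2 CPM in cKO and 32.5, 25.6 and 28.4 CPM in WT in set 2, against 16.9 and 17.2 CPM in cKO and 17.5, 21.05 and 16.02 CPM in WT in set 1, with a log2 fold change of 0.74 (SE 0.0964, edgeR adjusted p 4.44e-06). Maff encodes a small MAF partner of NRF2 and was low throughout. Its levels were 2.57, 1.91, 2.21 and 2.07 CPM in cKO and 1.90, 1.97 and 2.66 CPM in WT in set 2, against 0.973 and 0.718 CPM in cKO and 0.386, 0.456 and 0.264 CPM in WT in set 1 (log2 1.94, SE 0.317, edgeR adjusted p 6.17e-05). Gstm6, a mu-class transferase, was also higher in set 2 (1.07, SE 0.168, edgeR adjusted p 3.92e-05). Slc7a11 and Abcc1, both named here for their small p-values, thus moved in opposite directions between the sets. The other importer and exporter genes of the list were not called. For genotype the smallest p-values below 0 belonged to Sepw1, which the files use for Selenow (-0.14), Gpx8 (-0.25) and Gstz1 (-0.16). Those above 0 belonged to Fth1 (0.11), Gpx3 (0.17) and Maff (0.36), and the edgeR adjusted p of the 6 ran from 0.803 to 0.883.

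**Figure D5:**
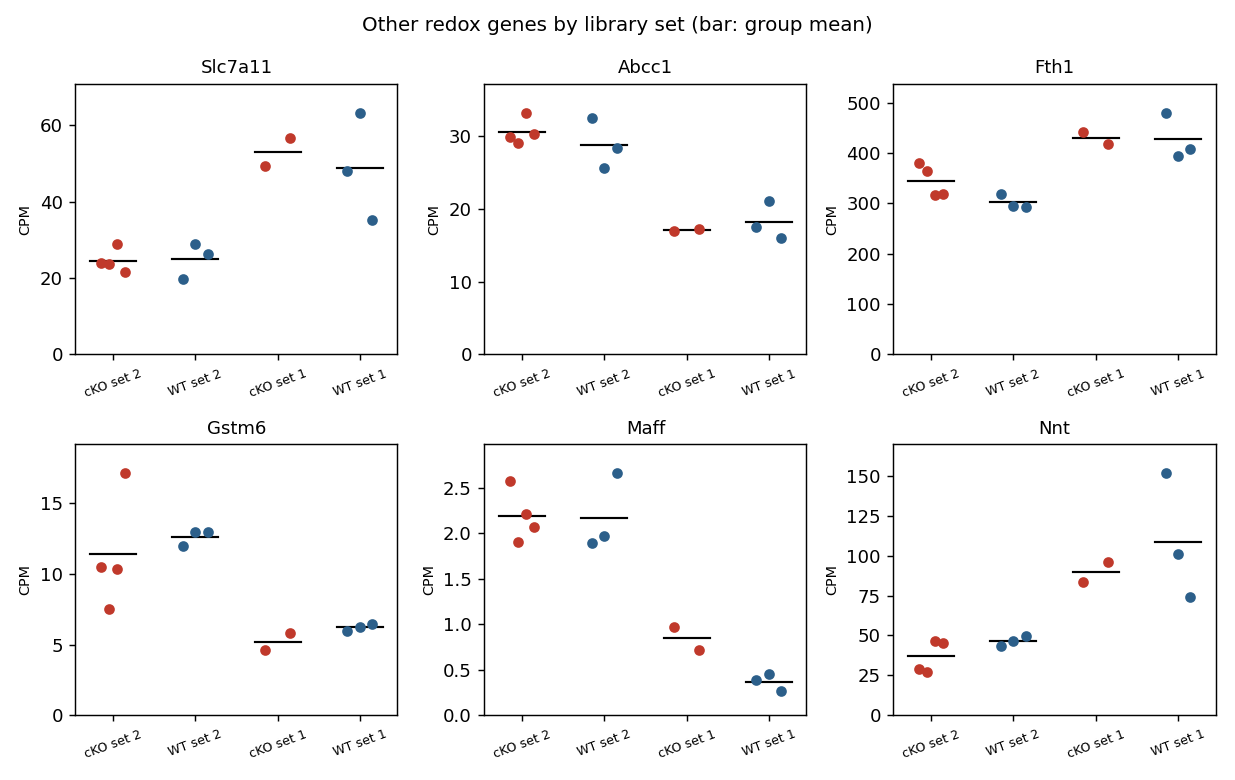
Levels in CPM (vertical axis, from 0) of 6 further redox genes in the 12 RNA-seq libraries, each point a library, red for cKO and blue for WT, with bars at group means. Slc7a11, Fth1 and Nnt are lower in set 2, and Abcc1, Gstm6 and Maff are higher.

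HAC-seq gave a second readout of the same genes, the cleavage ratio at C sites of their transcripts. Of 118890 sites, 606 lay in 24 of the member genes, and 486 of these lay in no other annotated gene. Every site had at least 2 read starts in each WT library, while cKO replicate 1 had a ratio of 0% at a Gstm1 site. The WT libraries thus met a minimum that the cKO libraries did not have to meet, and its effect on the differences was not tested. Sites with a coverage of at least 50 reads in every library and a mean ratio of at least 5% numbered 13240, of which 62 lay in members, 39 of them in 13 members alone. None of the 39 was called between genotypes by the quasi-binomial test with Benjamini-Hochberg adjustment (background 0.00755%, 1 site of 13240), and 0 of 39 had an unadjusted p under 0.05, against 8.64% of all sites. The lowest adjusted p was 0.575. The median difference, cKO minus WT, was 0.912 percentage points over the 39 sites and 0.57 over all tested sites. In WT, 37 of the 39 sites averaged under 10%. Among the 39 sites, Gpx1 carried the highest ratio, at position 108339400 of chromosome 9, plus strand (GRCm38.p6), within the annotated gene (chromosome 9, 108339080 to 108340342). The 3 cKO libraries gave 33.3%, 30.1% and 23.6% and the 4 WT libraries 28.7%, 37.5%, 33.0% and 31.8%, at coverages of 55 to 167 reads. The means were 29.0% ± 4.94 (SD, n = 3) in cKO and 32.8% ± 3.63 (SD, n = 4) in WT, the groups overlapped, and limma's squeezed quasi-binomial fit gave an adjusted p of 0.892. Cleavage at this site was seen in both genotypes, and the difference was within the spread between libraries.

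The remaining 23 tested member sites also lay in another annotated gene, so their reads cannot be assigned to the member alone. Of these, 22 lay in Gclm and in Gm17494, and 1 in Sod1 and in Scaf4. None of the 23 was called, and the 2 of 62 member sites with an unadjusted p under 0.05 (against 8.64% of all sites) were both in Gclm. The site at position 122257286 of chromosome 3, plus strand, had the highest ratio of the 62. It gave 36.5%, 35.6% and 25.7% in the 3 cKO libraries and 43.5%, 36.6%, 41.7% and 41.0% in the 4 WT libraries, at coverages of at most 172 reads. The highest cKO library (36.54%) and the lowest WT library (36.63%) nearly met, and how many of all tested sites had groups apart was not counted. The means were 32.6% ± 5.98 (SD, n = 3) in cKO and 40.7% ± 2.92 (SD, n = 4) in WT, and the adjusted p of the quasi-binomial fit with limma was 0.575. The site at position 122257303 went the other way, with means of 6.98% ± 1.89 (SD, n = 3) in cKO and 5.00% ± 0.575 (SD, n = 4) in WT, overlapping groups and the same adjusted p.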

How the data were processed

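The 33 members and the further lists were chosen with earlier results of these data known. Tools named in the submitters' processing notes are STAR 2.5.2a, Trimmomatic 0.32 and bcl2fastq 2.17.1.14. Those notes give GRCm38 as the RNA-seq build and GRCm38.p6 as the HAC-seq build. What counted the reads, and on which annotation, is not stated in labels, notes or headers. RNA-seq values are the authors' raw counts per gene, as deposited. Among small counts (1 to 10) only 17.4% were odd, among larger ones (101 to 1000) 50.1%, so an alternative divided all counts by 2. HAC-seq values, per the file headers, are read starts per C site (a coverage signal), the count of reads there, and the quotient of both as a fraction. A deposited p-value for each site was not used. Sample columns left out numbered 0.

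Genes were kept by edgeR's filterByExpr (edgeR 4.0.16, R 4.3.3) with genotype as the group, scaled by TMM, and tested by the quasi-likelihood F test (two-sided) with genotype and library set as terms, adjusted by Benjamini-Hochberg over 13105 genes at a threshold of 0.05. CPM are TMM-scaled, log2 CPM used a prior count of 2, and the standard error (SE) comes from the F statistic. Cleaved reads among all reads at a site were tested with a quasi-binomial model whose dispersions were squeezed by limma 3.58.1. DESeq2 1.42.0, RLE scaling, no filter, embryo sex, a replicate block, no set term, WT libraries alone and leaving out each library were alternatives. On simulated counts for cKO against WT with 50 genes per fold, the test recovered 37 at a fold of 0.5, 31 at 0.67, 30 at 1.5 and 41 at 2, with 8 false calls among 12964 genes. The simulated counts held no difference between library sets. Folds as small as those of the members for genotype (0.787 for Mgst1 to 1.23 for Gsr) were not simulated. Values in every library were given for members past the threshold of a contrast (at most the 10 with the smallest p), the 4 with the smallest p for each contrast, and Nfe2l2, Keap1, Gclc, Gclm, Nqo1, Hmox1, Sod2 and Gpx4. Of the further genes, at most 3 per direction and contrast were named. Txn2 was added after its values were seen, as 1 of the 5 members with an unadjusted p under 0.05 for genotype. Levels of different genes were not compared, because exon lengths were not used here.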

Additional observations from a re-analysis of the deposited data

Results flagged for a closer look

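Of 67 groups of 4 to 10 libraries examined for a library far from the others, 2 held one, and chance alone marks about 1 group in 20. The RNA-seq groups held all libraries of a genotype, from both library sets. For genes that differ between the sets that rate does not hold, and a stray library can go unmarked. Txnrd2, the mitochondrial thioredoxin reductase, had 3.27 CPM in cKO replicate 3, against 4.99 to 5.30 CPM in the other 5 cKO libraries. Gclm had 9.27 CPM in WT replicate 1, against 10.98 to 11.8 CPM in the other 5 WT libraries. Neither gene was called for genotype or library set.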

How the results depend on the processing

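The 14 set calls all held with DESeq2, RLE scaling, halved counts and embryo sex as a covariate, and all but Txnrd1 with no filter on low counts. Me1 was called in addition with DESeq2, RLE scaling, halved counts and no filter, and Mgst1 with no filter. Leaving out 1 library at a time gave 12 to 17 member calls for library set and 0 for genotype, and 15 to 22 set calls and 0 genotype calls among the further redox genes. With no filter on low counts, 1 member (Mgst1, lower) and 1 further gene (Nnt, -0.30, adjusted p 0.0497 in edgeR) were called for genotype. In the WT libraries alone, 10 members and 10 further genes were called for library set. Of the 14 members 9 remained called, and Hmox1, Gsr, Txnrd1, Prdx2 and Gpx1 were not. The labels tie no number to a shared animal or day. Deviations from the genotype means correlated at 0.514, 0.621, -0.359, 0.437, 0.383 and 0.373 for numbers 1 to 6, values that carry the library set, since number 3 alone crosses the sets. Deviations from the means of genotype and set correlated at -0.023, 0.053, -0.049, 0.172, -0.0023 and 0.055, so the numbers were not taken to pair the libraries. With a replicate block, 0 members were called for genotype, 7 members and 3 further genes for library set, and 1024 genes in all, since by construction only number 3 then holds both sets. Of the 14 set calls 6 remained, Prdx1 was added (-0.40, adjusted p 0.0453), and Nqo1 (0.36, adjusted p 0.404), Hmox1 (-0.048, adjusted p 0.913), Gclc, Gsr, Txnrd1, Prdx4, Gpx1 and Glrx were not called. Genotype signs near 0 turned, on the log2 scale. With embryo sex as a covariate Nqo1 was 0.021, Hmox1 -0.019, Gclc 0.043 and Nfe2l2 0.033. With the replicate block Nqo1 was 0.043, Hmox1 -0.025, Sod2 0.0038, Prdx1 0.023 and Pgd -0.065. With no library set term Nqo1 was 0.13, Hmox1 -0.029, Gclc 0.077, Txn1 -0.051 and Nfe2l2 0.076. Without the 2 male cKO libraries, an alternative chosen after seeing the data, Nqo1 was 0.041, Hmox1 -0.020, Gclc 0.048 and Nfe2l2 0.031. For library set, the replicate block gave Gclm -0.028, Txnrd1 -6.58e-05, Gpx4 -0.12, Keap1 0.50 and Pgd 0.50, and the WT libraries alone gave Pgd 0.066 and Gstm5 0.029. Leaving out 1 library turned the genotype sign at least once for Gclc (-0.093 to 0.014), Gpx1 (-0.0051 to 0.053), Gpx4 (-0.047 to 0.059), Gss (-0.031 to 0.089), Hmox1 (-0.039 to 0.050), Nfe2l2 (-0.051 to 0.0088), Nqo1 (-0.082 to 0.041), Pgd (-0.035 to 0.092), Txn1 (-0.050 to 0.044) and Txnrd2 (-0.14 to 0.0053), and the set sign for Gstm5 (-0.076 to 0.015). The cause of these turns was not tested. HAC-seq gave 0 called member sites under every coverage minimum, left-out library and replicate block tried. Levels per length were not run.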
